A study of Homo sapiens with 18 samples.

Results

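The interferon-stimulated genes are the genes that cells switch on when an interferon reaches its receptor, and 43 of them were followed in OCI-AML3, an established human acute myeloid leukaemia cell line. They were taken from a list of well known responders, chosen with earlier results of these data known. Each was read from the probe whose only gene symbol it is. Of the 43 listed genes 42 had such a probe, 1 probe each, among 21448 features on the array. STAT2 was the exception and was not analysed here. Cells in RPMI medium with fetal calf serum received the solvent DMSO, RG7112 at 2 µM or HDM201 at 500 nM for 24 h, with 6 arrays per group and 18 in all. RG7112 and HDM201 inhibit MDM2, the ubiquitin ligase that holds p53 protein low. All 3 groups are labelled wildtype, with no gene named, and the labels mention no added interferon. The material is a single cell line at 1 dose of each compound and 1 time, and the doses of the compounds differ. Replicates are labelled biological, but nothing says whether they were cultures of their own, and a p-value here speaks only of the spread among the arrays, which may be technical. The title places the series in work on p53 and immunity against leukaemia after transplantation, and the comparisons with DMSO ask what MDM2 inhibition does to these transcripts.

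Type I interferons bind the receptor made of IFNAR1 and IFNAR2, whose kinases JAK1 and TYK2 phosphorylate STAT proteins. Together with IRF9 these form a complex that binds a short DNA element, the interferon-stimulated response element (ISRE), in front of its target genes. Many of the targets have a basal level without any added interferon, and their products sense viral RNA, block translation or trap virus particles, or, as USP18 does, turn the signal down again.

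The promoters show how closely the members share this element. RefSeq promoter windows on GRCh38.p14, from 250 bases before to 50 after a start site, were searched on both strands for the ISRE core GAAANNGAAA, where N is any base. Of 33 members with a window 24 held the core (72.7%), against 1195 of 27305 symbols in the whole table (4.38%) and 3.57% of all 35116 windows. The core of the gamma-activated site, TTCNNNGAA, which reads alike on both strands and whose last letters can also begin an ISRE core, stood in 9 of the 33 members (27.3%) and in 9.38% of all symbols. Both counts describe letters in a window and not binding. The 5 sequences printed first belong to members that fell after at least 1 compound, and the 4 after them to members that passed in neither comparison, so that the element can be read in both kinds. Capitals mark the core, as printed 5′ to 3′ on the gene's own strand, where a core on the other strand reads as its complement. Position -1 is the base before the start site. The marked core begins at -103 in IFIT1 (chr10:89392500-89392549, plus strand), -51 in IFIT3 (chr10:89332458-89332507, plus), -73 in IFI44L (chr1:78620355-78620404, plus), and -6 in both EIF2AK2 (chr2:37156977-37157006, minus) and DTX3L (chr3:122564312-122564341, plus). It begins at -107 in ISG15 (chr1:1013370-1013419, plus), -69 in ISG20 (chr15:88638927-88638976, plus), -124 in BST2 (chr19:17405725-17405774, minus) and -21 in IFIH1 (chr2:162318685-162318725, minus).
IFIT1: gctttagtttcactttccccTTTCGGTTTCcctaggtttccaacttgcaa
IFIT3: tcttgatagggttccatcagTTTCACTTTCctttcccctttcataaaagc
IFI44L: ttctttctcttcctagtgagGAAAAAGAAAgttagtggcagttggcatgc
EIF2AK2: gggaaggcggagtccaagggGAAAACGAAA
DTX3L: ggagggacctccagggaagcGAAACTGAAA
ISG15: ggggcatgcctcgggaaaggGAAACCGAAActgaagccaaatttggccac
ISG20: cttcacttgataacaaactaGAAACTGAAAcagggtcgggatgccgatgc
BST2: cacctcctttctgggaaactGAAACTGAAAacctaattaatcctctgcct
IFIH1: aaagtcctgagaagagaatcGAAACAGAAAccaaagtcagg

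The core was found in 7 of the 11 members with a window that fell after at least 1 compound, namely DTX3L, EIF2AK2, IFI44L, IFIT1, IFIT3, MX1 and OAS3. It was found in 17 of the 21 with a window that passed in neither comparison. CMPK2, OAS1, SAMD9L and XAF1 fell without these letters in their windows, which says nothing of elements elsewhere. DTX3L and PARP9 are transcribed away from each other, and the core printed for DTX3L is the same stretch of DNA as the core in the PARP9 window.

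The arrays hold log2 signals with medians of 6.44 to 6.57, and their number limits the precision. As a check of the treatment, CDKN1A and MDM2, both targets of p53, rose by 3.97 and 2.57 on the log2 scale after RG7112 and by 4.10 and 2.58 after HDM201. Replicates 1 to 3 part from replicates 4 to 6, and among the DMSO arrays alone CDKN1A differed by 1.65 and MDM2 by 0.89 between these sets, so within-set values stand beside the pooled ones. The interquartile range of RG7112 replicate 3 was 3.45, and those of the other 17 lay between 3.70 and 3.91. DMSO replicate 4 was the lowest DMSO array for 23 of the 42 members, and its mean over them was 6.79 against 6.98 to 7.10 on the other 5. Of 7 measured myeloid markers 6 had a mean above the median feature, and of 8 T and NK cell markers 5 lay below the 25th percentile (4.65) of the features. The marker lists do not all divide this way, since 3 of 4 B cell markers and 3 of 4 plasmacytoid dendritic cell markers also had a mean above the median feature, as did 2 of 7 fibroblast and epithelial markers.

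Among the 42 measured members 13 fell and 1 rose after RG7112, while 28 did not pass an adjusted p of 0.05. The share that fell was 31.0%, against 9.61% of all 21448 features, and the share that rose was 2.38% against 7.9%. After HDM201 10 members fell (23.8%, against 9.64% of all features), 1 rose (2.38% against 9.16%) and 31 did not pass. The members were chosen with earlier results of these data known, so these shares are description only. On a list of 41 further interferon-stimulated genes 9.76% fell after RG7112 and 7.32% after HDM201. The median log2 change of the members was -0.19 after RG7112 and -0.14 after HDM201, beside 0.03 and 0.02 over all features. With each array's median subtracted, 1268 features were higher and 2551 lower after RG7112, against 1695 and 2062 as deposited, and 16 members fell. Both comparisons use the same DMSO arrays, so each has its own values here and their likeness is not a separate result. Arrays of bulk RNA cannot tell fewer cells of a kind from less RNA per cell.

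The 13 that fell after RG7112 were EIF2AK2, OAS1, OAS2, OAS3, USP18, IFIT1, IFIT3, MX1, CMPK2, SAMD9L, DTX3L, IFI44L and XAF1. The 10 that fell after HDM201 were EIF2AK2, OAS1, OAS2, USP18, IFIT1, IFIT3, MX1, CMPK2, IFI44L and XAF1, and TRIM22 was the member that rose in each comparison. Without RG7112 replicate 3 the RG7112 comparison had 11 that fell, with SAMD9L and DTX3L lost, and without DMSO replicate 4 it had 12, with DTX3L lost. In the HDM201 comparison 12 fell without DMSO replicate 4, where IFIT2 and SAMD9L joined. Without RG7112 replicate 3, which shares only in the estimate of the spread there, 11 fell and 3 rose, with IFITM1, HERC6 and TRIM21 added. Over all features 2663 fell and 2549 rose in that fit, against 2067 and 1965 with all arrays. Each of the 10 members that fell after HDM201 stayed past the threshold in both comparisons when any of the 18 arrays was left out, with a highest adjusted p of 0.0488 for CMPK2 after RG7112. Not all of them passed within each replicate set alone, with 3 arrays per group. In replicates 4 to 6 alone CMPK2, IFI44L, MX1, OAS2 and XAF1 were lost after RG7112, and IFI44L, IFIT3, MX1 and XAF1 after HDM201. In replicates 1 to 3 alone EIF2AK2 was lost after HDM201.

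**Figure D1:**
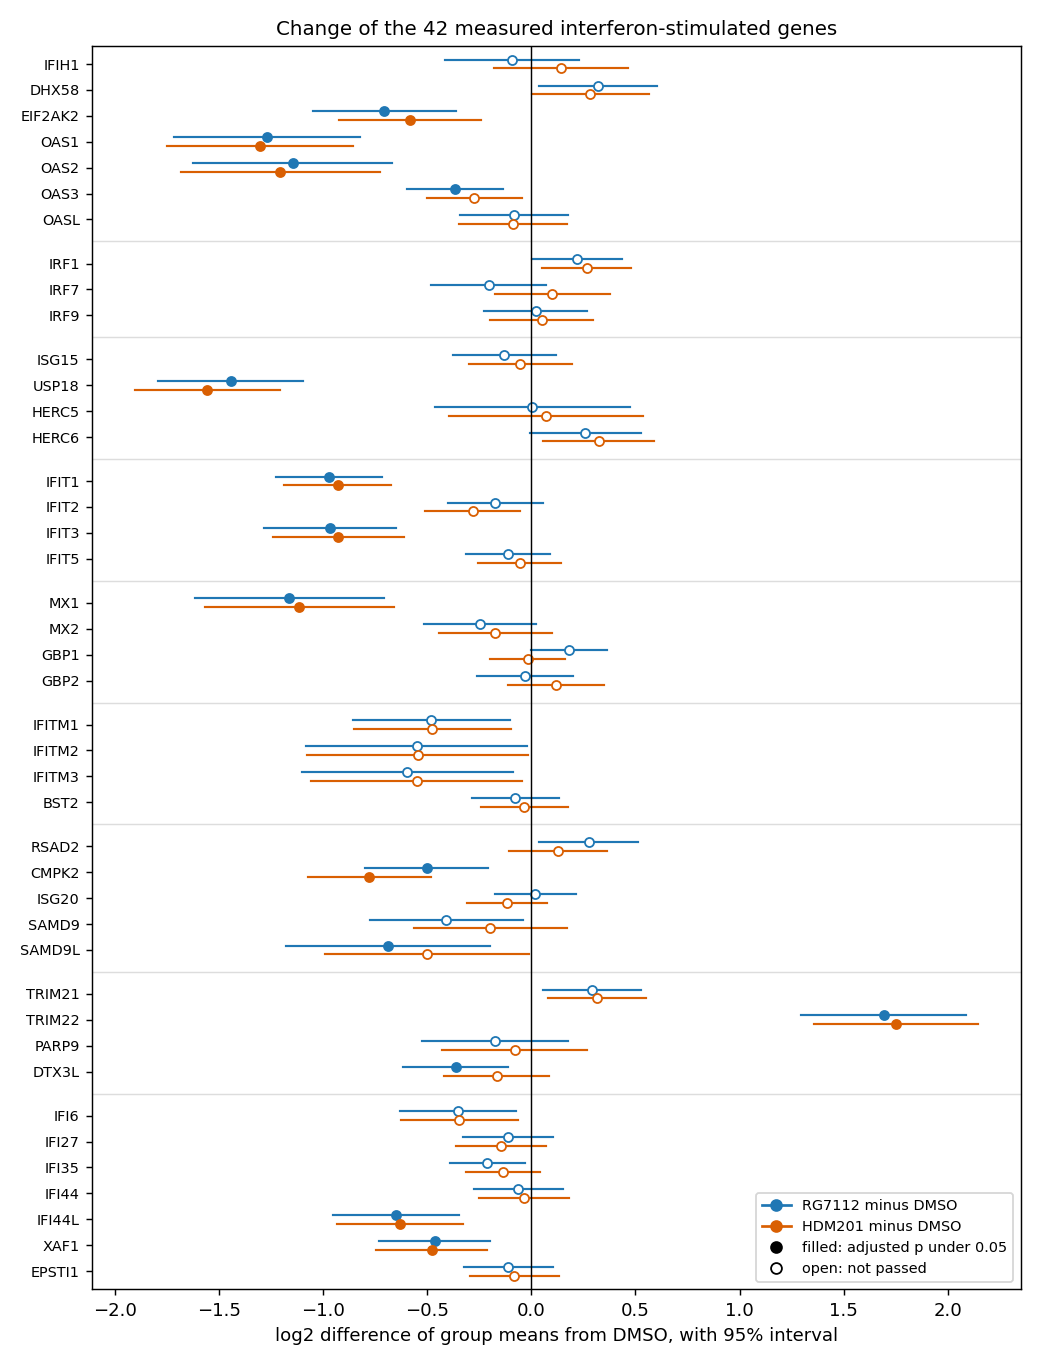
Log2 difference from DMSO (x axis) of the 42 measured members (y axis, grouped by role), with 95% intervals from the model; filled points passed an adjusted p of 0.05. USP18 lies farthest to the left at -1.44 and -1.56, TRIM22 farthest to the right at 1.69 and 1.75, and within the IFIT family IFIT1 and IFIT3 stand apart from IFIT2 and IFIT5.

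The sensors of foreign or double-stranded RNA come first, and 4 of their 7 members fell after RG7112 and 3 after HDM201. OAS1 makes the second messenger that activates RNase L. Its signal had a lowest, median and highest value of 5.91, 6.62 and 7.12 under DMSO, 4.81, 5.29 and 5.66 under RG7112 and 4.57, 5.40 and 5.70 under HDM201. Every DMSO array lay above every treated array. OAS1 fell 2.41-fold after RG7112 (log2 change -1.27 ± 0.21 SE, n = 6 per group here and below, adjusted p = 2.36e-04) and 2.47-fold after HDM201 (-1.30 ± 0.21, adjusted p = 1.23e-04). Within replicates 1 to 3 and 4 to 6 the change was -1.23 and -1.31 for RG7112 and -1.61 and -1.0 for HDM201.

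OAS2, a larger synthetase of the same family, stood at 6.33, 6.86 and 7.13 under DMSO, 4.52, 5.74 and 6.29 under RG7112 and 5.30, 5.57 and 6.25 under HDM201. No treated array overlapped with DMSO, although the highest RG7112 array nearly met the lowest DMSO array. OAS2 fell 2.21-fold (-1.15 ± 0.23, adjusted p = 0.00117) and 2.31-fold (-1.21 ± 0.23, adjusted p = 5.61e-04). OAS3, the largest synthetase, ranged from 6.24 to 6.48 (median 6.35) under DMSO, from 5.63 to 6.32 (median 5.97) under RG7112 and from 5.78 to 6.32 (median 6.12) under HDM201. Its groups overlapped. OAS3 fell after RG7112 (-0.37 ± 0.11, adjusted p = 0.0244), a call that was lost without DMSO replicate 1, DMSO replicate 2 or RG7112 replicate 2, where the adjusted p reached 0.0560. After HDM201 its change of -0.27 ± 0.11 did not pass (adjusted p = 0.0932).

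EIF2AK2 encodes PKR, the kinase that halts translation when it meets double-stranded RNA. It stood at 9.24, 9.39 and 9.68 under DMSO, 7.74, 8.86 and 9.08 under RG7112 and 8.69, 8.85 and 8.99 under HDM201, so that no treated array reached the DMSO arrays. The lowest RG7112 value came from replicate 3. EIF2AK2 fell 1.63-fold after RG7112 (-0.71 ± 0.16, adjusted p = 0.00439) and 1.5-fold after HDM201 (-0.58 ± 0.16, adjusted p = 0.0147), by -0.95 and -0.46 within the replicate sets for RG7112 and -0.64 and -0.52 for HDM201.

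DHX58, which encodes the RNA helicase LGP2, had the largest difference among the sensors that did not pass. It ranged from 5.79 to 6.32 (median 6.01) under DMSO, from 6.07 to 6.61 (median 6.29) under RG7112 and from 5.94 to 6.78 (median 6.22) under HDM201. These ranges overlap, and the changes were 0.32 ± 0.14 (adjusted p = 0.11) and 0.28 ± 0.14 (adjusted p = 0.168). IFIH1, which encodes the sensor MDA5, and OASL, a synthetase relative without the enzyme activity, had changes of -0.09 and -0.08 after RG7112 and of 0.14 and -0.09 after HDM201, and neither passed.

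None of the 3 measured transcription factors of the pathway passed. IRF1, an activator that also answers interferon gamma, had the largest difference of them, with 7.43, 7.57 and 7.73 under DMSO, 7.60, 7.75 and 8.09 under RG7112 and 7.53, 7.83 and 8.13 under HDM201. Its arrays overlapped between the groups. The changes of IRF1 were 0.22 ± 0.10 (adjusted p = 0.155) and 0.27 ± 0.10 (adjusted p = 0.0812). IRF9, the DNA-binding subunit of the complex on the ISRE, differed by 0.02 (95% interval -0.23 to 0.27) and 0.05 (-0.20 to 0.30), and IRF7, which amplifies interferon production, by -0.20 and 0.10.

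USP18 removes the ubiquitin-like protein ISG15 from its targets and blocks the receptor, and it had the largest fall of the members that fell. Its signal stood at 6.17, 6.30 and 6.86 under DMSO, 4.49, 5.03 and 5.27 under RG7112 and 4.40, 4.83 and 5.47 under HDM201. The treated arrays lay well below every DMSO array. USP18 fell 2.72-fold after RG7112 (-1.44 ± 0.17, adjusted p = 3.70e-06) and 2.94-fold after HDM201 (-1.56 ± 0.17, adjusted p = 8.42e-07). In replicates 1 to 3 and 4 to 6 the changes were -1.59 and -1.30 for RG7112 and -1.89 and -1.22 for HDM201.

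The other members of this role, ISG15 itself and the ligases HERC5 and HERC6, did not pass. ISG15 ranged from 5.76 to 6.32 (median 5.89) under DMSO, from 5.42 to 6.08 (median 5.92) under RG7112 and from 5.70 to 6.15 (median 5.95) under HDM201, with changes of -0.13 (95% interval -0.38 to 0.12) and -0.05 (-0.30 to 0.19). HERC5, the main ligase for ISG15 in human cells, changed by 0.01 and 0.07, with intervals from -0.46 to 0.47 and from -0.40 to 0.54. HERC6, its neighbour on the chromosome, had the largest difference of the role that did not pass, at 0.26 ± 0.13 (adjusted p = 0.178) and 0.32 ± 0.13 (adjusted p = 0.0895). Its arrays ran from 6.91 to 7.23 (median 7.13) under DMSO, from 6.97 to 7.91 (median 7.31) under RG7112 and from 7.20 to 7.65 (median 7.41) under HDM201, and the groups overlapped.

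The IFIT proteins bind viral RNA ends and block its translation, and 2 of the 4 genes fell in each comparison. IFIT1, which recognises RNA caps without host methylation, stood at 4.71, 5.23 and 5.35 under DMSO, 3.87, 4.22 and 4.36 under RG7112 and 3.99, 4.10 and 4.51 under HDM201. No treated array reached the DMSO arrays. IFIT1 fell 1.96-fold after RG7112 (-0.97 ± 0.12, adjusted p = 9.76e-06) and 1.9-fold after HDM201 (-0.93 ± 0.12, adjusted p = 9.53e-06). Its mean signal lies below the 25th percentile of the features, where a fold on this scale can be compressed.

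IFIT3, the partner that steadies IFIT1 on RNA, stood at 5.57, 6.16 and 6.32 under DMSO, 4.66, 5.05 and 5.58 under RG7112 and 4.89, 5.17 and 5.38 under HDM201. The highest RG7112 array just passed the lowest DMSO array, replicate 4, and the HDM201 arrays stayed below it. IFIT3 fell 1.95-fold (-0.97 ± 0.15, adjusted p = 1.05e-04) and 1.9-fold (-0.93 ± 0.15, adjusted p = 1.16e-04). IFIT2, which binds a different form of RNA, ranged from 4.96 to 5.51 (median 5.28) under DMSO, from 4.86 to 5.32 (median 5.12) under RG7112 and from 4.80 to 5.34 (median 4.99) under HDM201. Its groups overlapped and its changes of -0.17 ± 0.11 (adjusted p = 0.305) and -0.28 ± 0.11 (adjusted p = 0.0829) did not pass. IFIT5 differed by -0.11 and -0.06.

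Of the 4 GTPases MX1 alone passed. MX1 encodes MxA, a dynamin-like protein that assembles on viral nucleocapsids. Its signal stood at 6.70, 7.61 and 8.04 under DMSO, 5.31, 6.55 and 6.82 under RG7112 and 6.04, 6.42 and 6.72 under HDM201. DMSO replicate 4 was the array that overlapped with the treated ones. MX1 fell 2.24-fold after RG7112 (-1.16 ± 0.22, adjusted p = 6.81e-04) and 2.16-fold after HDM201 (-1.11 ± 0.22, adjusted p = 7.75e-04).

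MX2, which encodes the related MxB at the nuclear pore, had the largest difference of this role that did not pass. It ranged from 9.09 to 9.41 (median 9.19) under DMSO, from 8.34 to 9.30 (median 9.01) under RG7112 and from 8.77 to 9.29 (median 9.03) under HDM201. The ranges overlap, and the changes were -0.25 ± 0.13 (adjusted p = 0.209) and -0.17 ± 0.13 (adjusted p = 0.429). GBP1 and GBP2, guanylate-binding proteins that answer interferon gamma above all, had low signals, both below the 25th percentile of the features. Their changes were 0.18 and -0.03 after RG7112 and -0.02 and 0.12 after HDM201.

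None of the 4 membrane restriction factors passed, although all 4 differences were below 0 in each comparison. After HDM201 BST2 turned above 0 in replicates 4 to 6 alone (0.096), without HDM201 replicate 2 (0.0366) and with a further quantile normalization (0.0025). IFITM3, which stops viruses from fusing in endosomes, had the largest difference of the 4. It stood at 10.70, 10.93 and 11.51 under DMSO, 9.45, 10.47 and 11.20 under RG7112 and 9.92, 10.48 and 11.07 under HDM201, with the lowest RG7112 value on replicate 3 and with overlapping groups. The changes of IFITM3 were -0.60 ± 0.24 (adjusted p = 0.0985) and -0.55 ± 0.24 (adjusted p = 0.132). IFITM1 differed by -0.48 and -0.48, and IFITM2 by -0.55 and -0.54. With the replicate sets as a term in the fit, IFITM1, IFITM2 and IFITM3 passed in both comparisons. The coding sequences of the 3 IFITM genes are much alike, and whether their probes read each other's transcripts was not tested. BST2, or tetherin, which ties budding virus to the cell, differed by -0.08 (95% interval -0.29 to 0.13) and -0.03 (-0.24 to 0.18).

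Among 5 members that act on nucleotides, RNA or translation, CMPK2 and SAMD9L fell after RG7112 and CMPK2 fell after HDM201. CMPK2, a mitochondrial nucleotide kinase, stood at 6.97, 7.10 and 7.52 under DMSO, 6.22, 6.71 and 6.89 under RG7112 and 5.95, 6.49 and 6.69 under HDM201. No treated array reached the DMSO arrays. CMPK2 fell 1.42-fold (-0.50 ± 0.14, adjusted p = 0.0169) and 1.71-fold (-0.78 ± 0.14, adjusted p = 3.70e-04). In replicates 1 to 3 the changes of CMPK2 were -0.80 for RG7112 and -1.22 for HDM201, and in replicates 4 to 6 they were -0.20 and -0.34.

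SAMD9L, a restriction factor and tumour suppressor of myeloid cells, stood at 7.38, 8.43 and 8.57 under DMSO, 6.52, 7.62 and 7.92 under RG7112 and 7.27, 7.65 and 8.30 under HDM201. The lowest DMSO value was replicate 4, the lowest RG7112 value was replicate 3, and the groups overlapped. SAMD9L fell after RG7112 (-0.69 ± 0.24, adjusted p = 0.0478), but the call held in only 6 of the 18 fits that left out an array. After HDM201 its change was -0.50 ± 0.24 (adjusted p = 0.161). Its neighbour SAMD9 was the member of this role with the largest difference that passed in neither comparison.

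SAMD9 ranged from 8.68 to 9.24 (median 8.97) under DMSO, from 7.52 to 8.97 (median 8.81) under RG7112 and from 8.63 to 8.93 (median 8.79) under HDM201, and its groups overlapped. Its changes were -0.41 ± 0.18 (adjusted p = 0.123) and -0.20 ± 0.18 (adjusted p = 0.527). RSAD2, or viperin, which makes a chain-terminating nucleotide, differed by 0.28 (adjusted p = 0.102) and 0.13 (adjusted p = 0.522). ISG20, an exonuclease, differed by 0.02 and -0.12.

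TRIM22 was the member that rose, in each comparison. It encodes a ubiquitin ligase that restricts viruses and is also known as a direct target of p53. Its signal stood at 8.11, 8.89 and 9.40 under DMSO, 10.30, 10.54 and 10.84 under RG7112 and 10.34, 10.61 and 10.87 under HDM201. The lowest treated array lay above the highest DMSO array. TRIM22 rose 3.23-fold after RG7112 (1.69 ± 0.19, adjusted p = 2.46e-06) and 3.37-fold after HDM201 (1.75 ± 0.19, adjusted p = 8.94e-07).

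TRIM21, an antibody receptor inside the cell, had the largest difference of this role that did not pass. It ranged from 7.30 to 7.58 (median 7.50) under DMSO, from 7.27 to 8.03 (median 7.77) under RG7112 and from 7.64 to 8.12 (median 7.71) under HDM201. The HDM201 arrays lay above the DMSO arrays without overlap, and the RG7112 arrays did not. Its changes were 0.29 ± 0.11 (adjusted p = 0.0825) and 0.32 ± 0.11 (adjusted p = 0.0551). The second value crossed the threshold in 6 of 12 other settings and in 3 of the 18 fits that left out an array.

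DTX3L and PARP9 form a complex that adds ubiquitin to histones and viral proteins. DTX3L stood at 8.26, 8.37 and 8.51 under DMSO, 7.37, 8.06 and 8.44 under RG7112 and 8.14, 8.22 and 8.32 under HDM201, with RG7112 replicate 3 the lowest array and with overlap. It fell after RG7112 (-0.36 ± 0.12, adjusted p = 0.0431), a call that held in 3 of the 18 fits without an array, and its change after HDM201 was -0.17 ± 0.12 (adjusted p = 0.414). PARP9 differed by -0.17 and -0.08.

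In the last role, the IFI genes and others, 2 of 7 fell in each comparison. With all arrays in the fit all 7 differences were below 0 in each, though IFI27, IFI44 and EPSTI1 turned above 0 in some alternatives. IFI44L, which dampens the interferon answer, stood at 4.17, 4.42 and 5.12 under DMSO, 3.68, 3.84 and 4.06 under RG7112 and 3.46, 3.87 and 4.29 under HDM201. The RG7112 arrays lay below all DMSO arrays, and the highest HDM201 array overlapped. IFI44L fell 1.57-fold (-0.65 ± 0.15, adjusted p = 0.00317) and 1.55-fold (-0.63 ± 0.15, adjusted p = 0.00342), with a mean signal under the 25th percentile of the features.

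XAF1, a pro-apoptotic partner of the inhibitor XIAP, stood at 8.52, 8.70 and 8.85 under DMSO, 7.95, 8.17 and 8.69 under RG7112 and 7.82, 8.25 and 8.61 under HDM201. Replicate 5 was the highest array in all 3 groups, and the groups overlapped. XAF1 fell 1.38-fold (-0.46 ± 0.13, adjusted p = 0.0142) and 1.39-fold (-0.48 ± 0.13, adjusted p = 0.0101). IFI6, a mitochondrial and endoplasmic reticulum protein that protects cells from death, had the largest difference of this role that did not pass.

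IFI6 ranged from 9.13 to 9.68 (median 9.34) under DMSO, from 8.58 to 9.30 (median 9.06) under RG7112 and from 8.72 to 9.35 (median 9.01) under HDM201, with overlap. Its changes were -0.35 ± 0.13 (adjusted p = 0.0779) and -0.35 ± 0.13 (adjusted p = 0.0811). IFI35 differed by -0.21 and -0.14 and IFI27 by -0.11 and -0.15. IFI44 and EPSTI1, both below the 25th percentile of the features, differed by -0.06 and -0.11 after RG7112 and by -0.03 and -0.08 after HDM201.

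**Figure D2:**
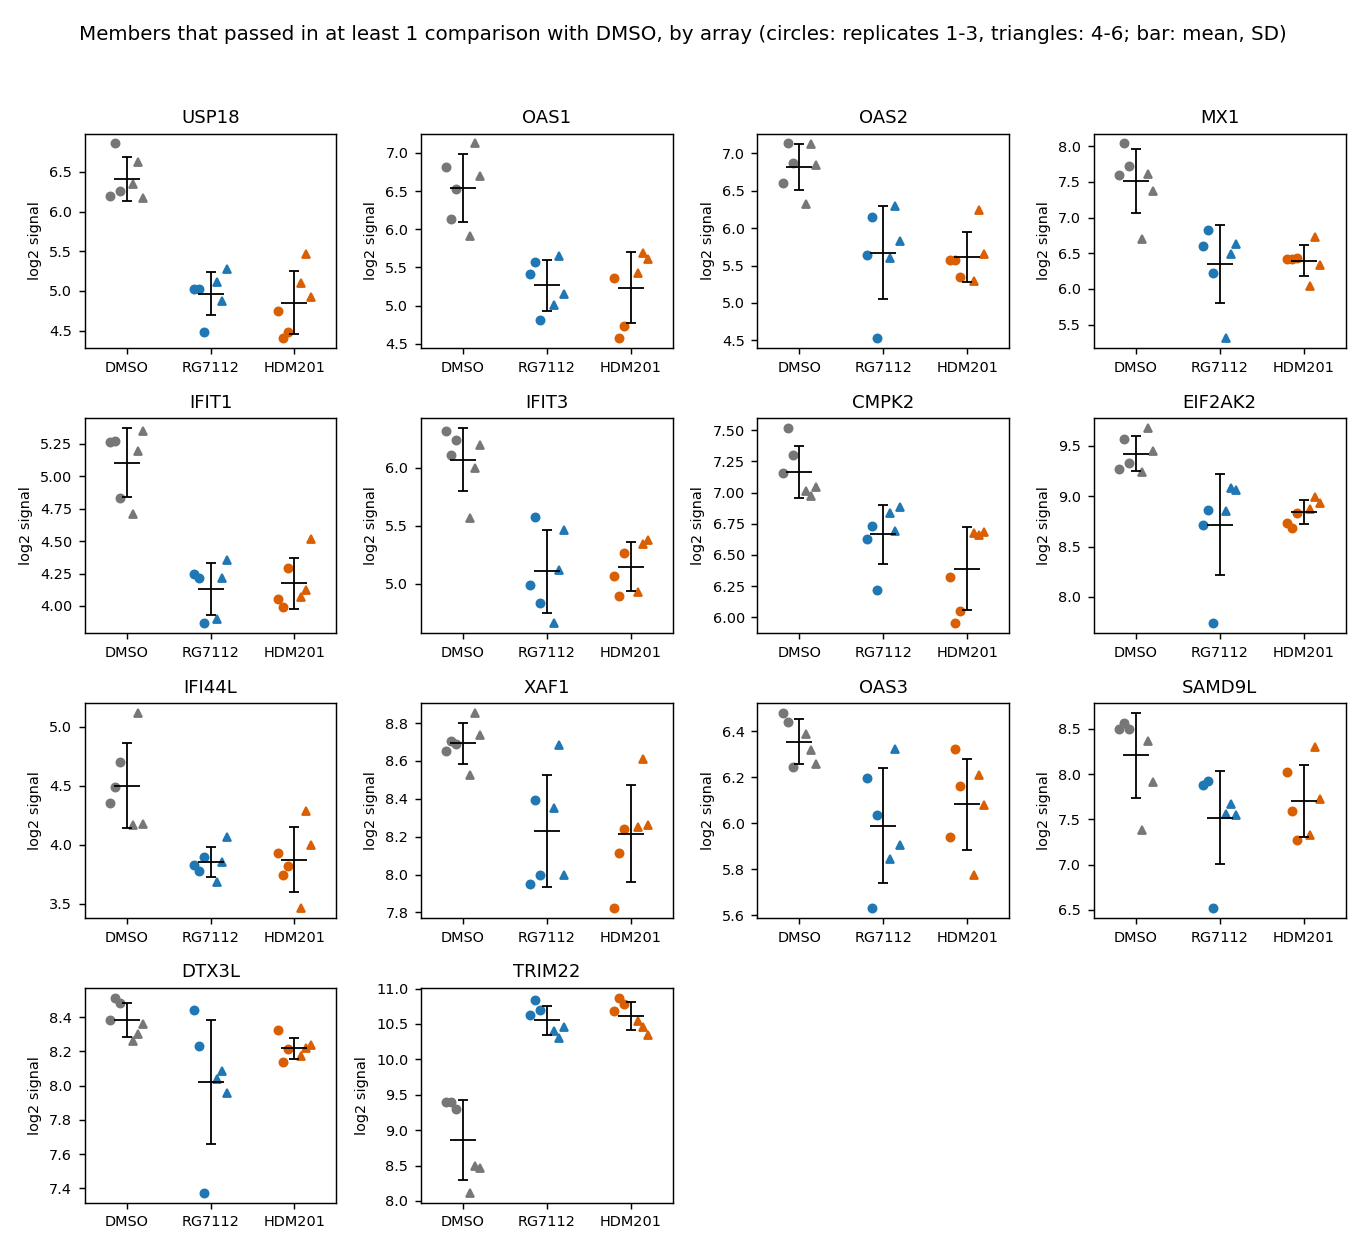
Log2 signal (y axis) on each array of the 14 members that passed in at least 1 comparison with DMSO, by group (x axis); circles are replicates 1 to 3, triangles replicates 4 to 6, and bars give the mean and SD of 6 arrays. For USP18 the DMSO arrays run from 6.17 to 6.86 and the treated arrays from 4.40 to 5.47, and for TRIM22 the DMSO arrays split into 9.30 to 9.40 and 8.11 to 8.49.

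The direct comparison of HDM201 with RG7112 asks whether these treatments, at their different doses, moved the members to different levels. None of the 42 members passed, and 0% of all 21448 features did by limma. Without adjustment 749 features (3.49%) had a p under 0.05, and 2 of them were members, IRF7 (0.31 ± 0.13, adjusted p = 0.991) and GBP1 (-0.20 ± 0.09, adjusted p = 0.991). IRF7 ran from 5.10 to 5.67 (median 5.54) under RG7112 and from 5.37 to 6.29 (median 5.72) under HDM201, with overlap. The member differences ran from -0.28 for CMPK2 to 0.31 for IRF7, with a median of 0.04. All 42 intervals lay within 1 log2 unit of 0 and 32 lay within 0.5, so larger gaps between these treatments lie outside the 95% intervals, while smaller ones could not be resolved. For SAMD9L, DTX3L and OAS3, which passed after RG7112 and not after HDM201, the difference between the treatments was 0.19 (-0.30 to 0.68), 0.20 (-0.06 to 0.45) and 0.09 (-0.14 to 0.32), none of which passed.

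The replicate sets were compared for the members as well. Among the DMSO arrays 1 member differed between replicates 1 to 3 and 4 to 6, against 0.303% of all features. TRIM22 ran from 9.30 to 9.40 on DMSO replicates 1 to 3 and from 8.11 to 8.49 on 4 to 6, a difference of 1.01 ± 0.11 (adjusted p = 1.55e-04). CDKN1A and MDM2 were higher in the same 3 DMSO arrays. After treatment TRIM22 rose by 1.36 within replicates 1 to 3 and 2.03 within 4 to 6 for RG7112, and by 1.41 and 2.09 for HDM201. Without adjustment 8 members had a p under 0.05 for the DMSO sets. The share of all features at that unadjusted threshold is not given here, so the count does not set the members apart. HERC5 (0.73), PARP9 (0.52) and CMPK2 (0.32) were higher in replicates 1 to 3 beside TRIM22, and IFITM3 (-0.58), IFITM2 (-0.55), IFITM1 (-0.53) and IFI27 (-0.33) were lower.

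Picked by their pooled changes on these same arrays, the 10 members that fell after HDM201 were below DMSO in both sets and for both compounds. That choice largely fixes the direction, which is given as description only. For RG7112 the changes of the 10 ran from -1.59 to -0.57 in replicates 1 to 3 and from -1.31 to -0.20 in 4 to 6. For HDM201 they ran from -1.89 to -0.63 and from -1.22 to -0.33. The fall was larger in replicates 1 to 3 for 9 of the 10 after RG7112 and for all 10 after HDM201. The test of that difference, the interaction of set and treatment, passed for none of the 42 members in either comparison, against 0.0373% of all features for RG7112 and 0.149% for HDM201. CMPK2 came nearest for HDM201, with a difference between the sets of -0.88 ± 0.19 (limma, adjusted p = 0.0935), against -0.59 ± 0.19 for RG7112 (adjusted p = 0.619). For RG7112 the nearest was TRIM22, at -0.67 ± 0.16 (adjusted p = 0.33). Unadjusted p-values under 0.05 were found for 3 members per compound, CMPK2 and TRIM22 with RSAD2 for RG7112 and with USP18 for HDM201. The share of all features at that threshold is not given here either, so these counts do not set the members apart. RSAD2 changed by 0.00 in replicates 1 to 3 and by 0.55 in 4 to 6 after RG7112.

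**Figure D3:**
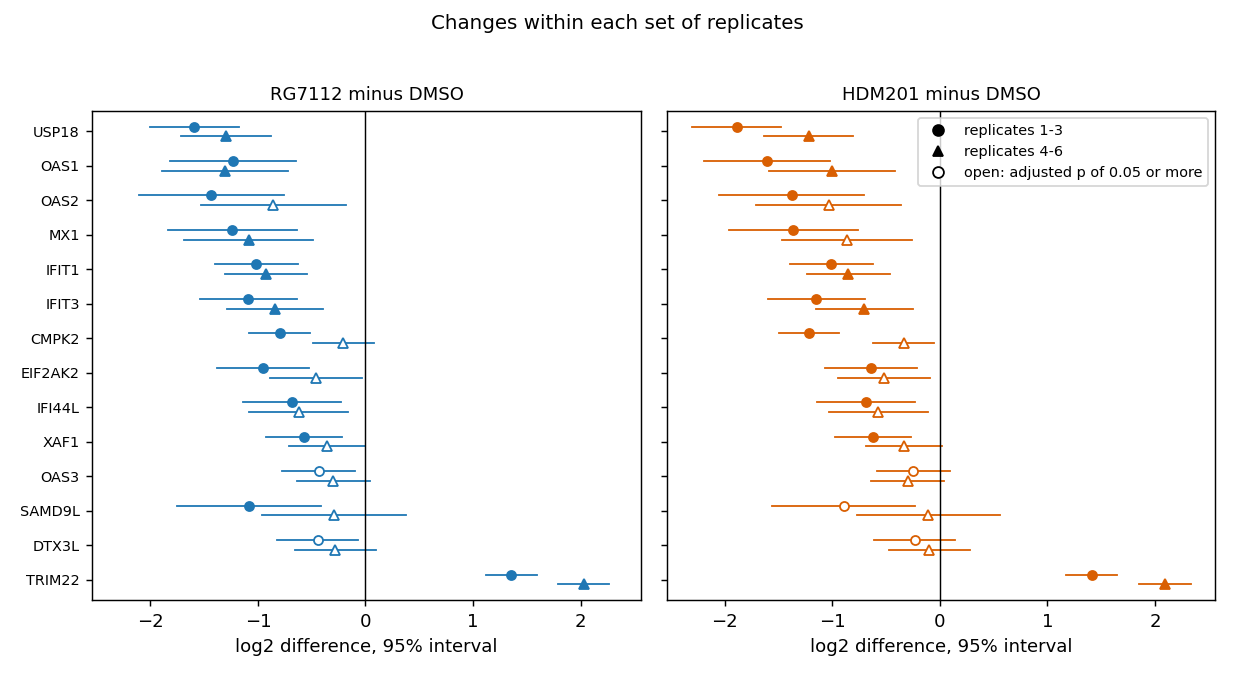
Log2 change from DMSO (x axis, with 95% intervals) within replicates 1 to 3 (circles) and within replicates 4 to 6 (triangles) for the 14 members that passed in at least 1 comparison (y axis), RG7112 on the left and HDM201 on the right; open symbols did not pass within their set. CMPK2 shows the widest gap among the members that fell after HDM201, at -1.22 and -0.34 for HDM201, and TRIM22 rose in both sets.

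Several members sit side by side on their chromosomes, and 18 pairs of members lie within 100 kb of each other in RefSeq, measured between their nearest ends. For each pair the difference between the changes of both genes was taken within arrays and tested over all 924 ways to divide the 12 arrays (an exact, two-sided permutation test with a smallest p of 0.00216), with Benjamini-Hochberg values over the 36 tests. The pairs were compared after the members' changes had been seen. In 9 of the 18 pairs the changes differed under each compound, which makes 18 of 36 tests with an adjusted value under 0.05. These tests are not independent, since both compounds use the same DMSO arrays and some genes stand in several pairs. Other neighbouring genes of the array were not compared, so the count does not set the members apart. The IFIT cluster divided inside itself. IFIT1 fell more than IFIT2 by -0.80 after RG7112 (exact p = 0.00216, adjusted 0.0111) and by -0.65 after HDM201 (exact p = 0.00433, adjusted 0.012). IFIT1 and IFIT5 differed by -0.86 and -0.87, and IFIT3 and IFIT5 by -0.85 and -0.87. The changes of IFIT1 and IFIT3 differed from each other by -0.005 and -0.0034 (exact p = 0.961 and 0.968).

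The OAS cluster and other neighbours split too. OAS1 and OAS3 differed by -0.90 (exact p = 0.00866) and -1.03 (exact p = 0.00433), and OAS2 and OAS3 by -0.78 and -0.93, while OAS1 and OAS2 did not pass (-0.12 and -0.10). MX1 and MX2 differed by -0.92 (exact p = 0.013) and -0.94 (exact p = 0.00433). CMPK2 and RSAD2 are read away from each other, and CMPK2 lay below RSAD2 in its change by -0.78 (exact p = 0.00216) and -0.90 (exact p = 0.00433). IFI44 and IFI44L differed by 0.59 and 0.59. In the pairs of DTX3L and PARP9, GBP1 and GBP2, HERC5 and HERC6, SAMD9 and SAMD9L and the 3 IFITM genes no test passed. DTX3L and PARP9, which share the core printed above, differed by -0.19 (exact p = 0.323) and -0.09 (exact p = 0.569).

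**Figure D4:**
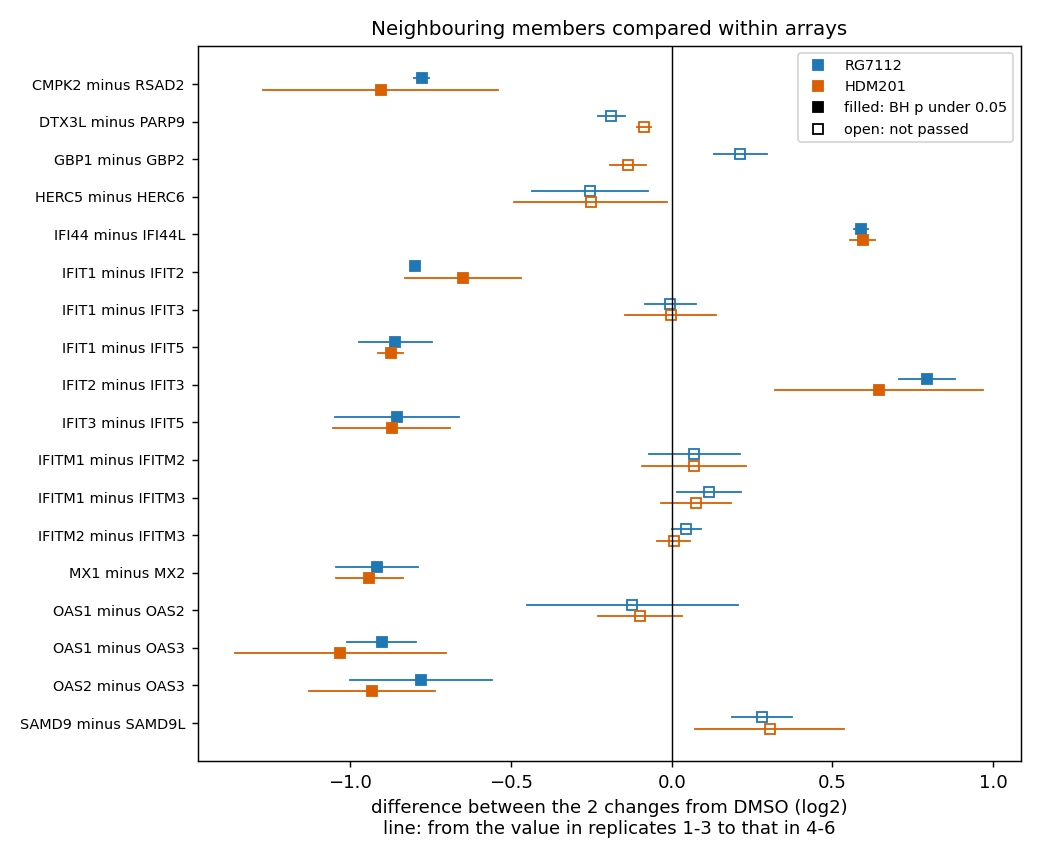
Difference between the log2 changes from DMSO of both genes of a neighbouring pair (x axis) for 18 pairs (y axis), with a line from the value in replicates 1 to 3 to that in replicates 4 to 6; filled squares passed a Benjamini-Hochberg value of 0.05. The pairs OAS1 and OAS3, MX1 and MX2, and CMPK2 and RSAD2 lie between -0.78 and -1.03, and the pair of IFIT1 and IFIT3 lies near 0.

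The steps before the members were read from lists that were also chosen with earlier results of these data known. None of 20 measured interferon genes passed in either comparison, and 17 of them had a mean signal below the 25th percentile of the features; IFNB1 ran from 4.07 to 4.69 (median 4.35) under DMSO and changed by 0.03 and 0.05. Of 6 receptor chains 3 rose in each comparison (50%, against 7.9% of all features after RG7112 and 9.16% after HDM201). IFNAR2 rose by 0.39 ± 0.10 (adjusted p = 0.00749) and 0.38 ± 0.10 (adjusted p = 0.00735), IFNGR1, of the interferon gamma receptor, by 0.33 and 0.44, and IL10RB, of the interferon lambda receptor, by 0.43 and 0.53. IFNAR1 differed by -0.13 and -0.06 and the kinase JAK1 by 0.09 and 0.18, without passing. TYK2 rose after RG7112 (0.28, adjusted p = 0.0319) and had 0.23 (adjusted p = 0.0723) after HDM201. No receptor chain fell in either comparison.

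Markers of plasmacytoid dendritic cells, the main interferon producers of blood, were read as well. Among the 4 measured ones CLEC4C rose (1.19 and 1.15), TCF4 fell (-0.49 and -0.53), and the other 2 did not pass. Their summed log2 signal ran from 29.0 to 29.8 under DMSO, from 29.3 to 30.7 under RG7112 and from 29.7 to 30.7 under HDM201. None of the 8 T and NK cell markers passed, with summed signals from 35.2 to 36.4, from 35.3 to 36.6 and from 35.2 to 36.2 in the same order. The part of these markers in the members' changes was not tested.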

How the data were processed

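Total RNA of 18 samples of OCI-AML3 was labelled with biotin by a WT Pico kit and hybridised to arrays, as the labels describe. Per the submitters' processing notes, the log2 values that the authors deposited come from oligo and its RMA method; RMA corrects background, normalizes quantiles and summarises probe sets, which compresses folds of dim probes. Neither tool versions nor the genome build is given in the sources used here. Of 21448 features 17709 carry 1 symbol, 3739 none and 0 several. All 18 columns were used.

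limma 3.58.1 (R 4.3.3) fitted a mean per group to each feature over 18 arrays, and p-values were adjusted by Benjamini and Hochberg over all features. "Rose", "fell" and "passed" mean an adjusted p under 0.05. A second fit had a mean per group and replicate set. Permutation tests used SciPy 1.17.1. The scripts were tested on simulated data. Members in each role that passed, and the largest that did not, are described in full. The members and lists were chosen with earlier results of these data known. Alternatives were another prior, array weights, filters on dim probes, other normalizations, fewer arrays, the replicate number or set in the fit, and leaving out each array.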

Additional observations from a re-analysis of the deposited data

Results flagged for a closer look

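Of 126 combinations of a member and a group, 6 had an array far from the other 5, by a gap that chance gives in about 1 of 20 groups. The count lies near that share, so the values below are description only. On RG7112 replicate 3 there were 3 such values, all the lowest of their group. EIF2AK2 stood at 7.74 there, against 8.71 to 9.08 on the other RG7112 arrays, and its fall after RG7112 stayed past the threshold without that array. SAMD9L stood at 6.52 against 7.55 to 7.92, and its call was lost without that array. SAMD9, its neighbour on the chromosome, stood at 7.52 against 8.56 to 8.97. The same array had the narrow interquartile range given above and an array weight of 0.151, where the lowest of the other arrays had 0.696. The part of this array's quality in the low values was not tested.

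The other 3 values lay above their groups. OAS2 stood at 6.25 on HDM201 replicate 5, against 5.30 to 5.65 on the other HDM201 arrays. MX2 stood at 9.41 on DMSO replicate 5, against 9.09 to 9.21. IFI44 stood at 4.32 on DMSO replicate 3, against 4.04 to 4.12.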

How the results depend on the processing

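The median change of the members kept its direction against DMSO in each alternative, from -0.24 to -0.14 for RG7112 and from -0.16 to -0.11 for HDM201 when 1 array was left out, and no member passed between the compounds in any alternative. That median was -0.0065 to 0.0586 between the compounds when 1 array was left out. Leaving out 1 array gave 10 to 14 members that fell and 1 to 2 that rose after RG7112, and 10 to 12 and 1 to 3 after HDM201. In these fits 1718 to 2237 of the 21448 features fell and 1354 to 1848 rose after RG7112. After HDM201 1723 to 2663 fell and 1651 to 2549 rose. Without features below the median signal 22 members were left to test, of which 6 fell after RG7112, and 4 fell and 3 rose after HDM201. Of the 10724 features in that fit 2079 fell after RG7112, and 1977 fell and 1807 rose after HDM201. The members' share that fell after HDM201 lies near that of all features there. In replicates 4 to 6 alone 5 fell and 2 rose after RG7112 and 6 fell after HDM201, with 3 arrays per group. Of all 21448 features 1159 fell and 989 rose there after RG7112, and 1297 fell after HDM201. Array weights gave 2 that rose after RG7112 and 4 after HDM201, the replicate sets as a term 2 in each comparison, the fit of the 12 arrays compared 3 after HDM201, and the filter at the 25th percentile 2 after HDM201, and the cause was not tested. Over all features 1861 and 2745 rose with array weights, against 1695 and 1965 in the main fit. The replicate sets gave 2011 and 2201, the 12 arrays 2523 after HDM201, and the 25th percentile filter 1996 of 16086 after HDM201. With the replicate number as a block (replicate block) 17 members fell and 1 rose after RG7112 and 15 fell and 3 rose after HDM201. IFITM1, IFITM2, IFITM3 and IFI6 joined in both comparisons, and IFIT2, IRF1 and TRIM21 after HDM201. Calls over all features were also more with the block. They numbered 2632 that fell and 2148 that rose after RG7112, and 2543 and 2323 after HDM201. Same-numbered arrays correlated by 0.017 to 0.44 in their deviations, 16 of 18 pairs above 0.1, and 14 of 18 arrays correlated best with their own number. That is a hint of pairing in the data, but the labels tie nothing to the number and not every pair passed 0.1, so the fit without the block was kept. The sign turned in 49 values, 31 of them without 1 array, in 18 combinations of a member and a comparison, 0 of which passed and the largest of which was 0.145 in size. In replicates 1 to 3 alone this held for OASL (0.0684), GBP2 (0.0389) and EPSTI1 (0.0005) after RG7112 and for GBP1 (0.0381) and IFI27 (0.029) after HDM201. With each array's median subtracted this held for IRF9 (-0.0316), HERC5 (-0.0466) and ISG20 (-0.0327) after RG7112. In replicates 4 to 6 alone this held for IRF9 (-0.0052), ISG15 (0.0145) and ISG20 (-0.0596) after RG7112 and for BST2 (0.096) and PARP9 (0.0103) after HDM201. With array weights this held for HERC5 (-0.1073) and ISG20 (-0.0125) after RG7112. With a further quantile normalization this held for HERC5 (-0.0553) and ISG20 (-0.019) after RG7112 and for BST2 (0.0025) after HDM201. Without 1 array the changes ran for IFIH1 from -0.2241 to 0.002, OASL from -0.1655 to 0.0003, IRF9 from -0.0775 to 0.0854, HERC5 from -0.1116 to 0.156, GBP2 from -0.0784 to 0.0074 and ISG20 from -0.0333 to 0.0647 after RG7112. They ran for IRF7 from -0.0063 to 0.1774, IRF9 from -0.0475 to 0.1154, ISG15 from -0.0968 to 0.0146, HERC5 from -0.0104 to 0.205, IFIT5 from -0.1211 to 0.0071, GBP1 from -0.044 to 0.018, BST2 from -0.0905 to 0.0366, PARP9 from -0.1615 to 0.0333 and IFI44 from -0.0821 to 0.0056 after HDM201. Of the other values of single members 2310 kept direction and side of the threshold, 57 newly passed it and 52 no longer did. The mean over all probes of a gene was not run, since each member has 1 probe. Of the 42 members 6 have a mean below the 25th percentile of the features and 20 below the median, where changes are harder to see.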

Other observations

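Other genes around the interferon pathway, read from lists on which no member stands, follow here with the share of all features that passed, which was 7.9% higher and 9.61% lower after RG7112 and 9.16% and 9.64% after HDM201. Of 18 genes that sense nucleic acids upstream of interferon, 4 rose (22.2%) and 1 fell (5.56%) in each comparison. STING1, the adaptor that answers DNA in the cytosol, rose by 0.45 ± 0.07 after RG7112 (adjusted p = 1.83e-04) and by 0.51 ± 0.07 after HDM201 (adjusted p = 3.41e-05). TLR8, an endosomal RNA receptor of myeloid cells, rose by 0.66 and 0.81, the adaptor TRAF3 by 0.40 and 0.33, and the kinase TBK1 by 0.35 and 0.42. IRF3, the factor that TBK1 activates, fell after RG7112 (-0.37, adjusted p = 0.0412), and CGAS, the enzyme upstream of STING1, fell after HDM201 (-0.49, adjusted p = 0.0104). In the other comparison IRF3 had -0.21 (adjusted p = 0.268) and CGAS -0.38 (adjusted p = 0.052).

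Among 14 genes that hold interferon signalling down 1 rose (7.14%) and 4 fell (28.6%) after RG7112, and 2 rose and 2 fell (14.3% each) after HDM201. RNASEH2A, the catalytic subunit of RNase H2, which removes RNA from DNA, had the largest change of the list. RNASEH2A stood at 9.11, 9.39 and 9.59 under DMSO, 7.74, 8.26 and 8.62 under RG7112 and 7.75, 7.94 and 8.35 under HDM201, with no overlap between DMSO and the treated arrays. It fell by 1.16 ± 0.14 on the log2 scale (adjusted p = 6.33e-06) and by 1.36 ± 0.14 (adjusted p = 5.37e-07). RNASEH2B fell by 0.37 and 0.45, and RNASEH2C fell by 0.44 after RG7112 and had -0.35 (adjusted p = 0.0619) after HDM201. CISH, an inhibitor of cytokine receptors, fell after RG7112 (-0.41, adjusted p = 0.0467) and PTPN6, a phosphatase, rose after HDM201 (0.29, adjusted p = 0.0308). SAMHD1, which degrades nucleotides, rose by 0.23 and 0.30. Among 41 further interferon-stimulated genes 5 rose and 4 fell after RG7112 (12.2% and 9.76%), and 7 rose and 3 fell after HDM201 (17.1% and 7.32%), with median changes of -0.01 and -0.03. The shares that fell lie near those of all features. The largest rises there were of PARP10 (0.73 and 0.65), and ETV7 (0.48 and 0.59), DDX60L (0.51 and 0.51) and ZC3HAV1 (0.39 and 0.48) rose in each comparison as well. GBP4 (-0.46 and -0.37) and UBE2L6, which carries ISG15 to its targets (-0.36 and -0.38), fell in each.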
